A study of Mus musculus with 8 samples.

Results

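RNA of mouse myoblasts kept for 24 hours in medium conditioned by pancreatic cancer cells was compared on 2 dye-swapped arrays with RNA of the same cell line at 0 hour in control medium. These are 2 of the series' 8 arrays and 1 of its 4 comparisons, chosen by their titles. Myoblast RNA in conditioned medium is called MBC and in control medium MBN, with the hours after it, so the comparison is MBC24 over MBN0. It joins the medium and the time in culture, which cannot be told apart within it. All groups are C2C12, an established line of mouse myoblasts grown in DMEM with 2 mM glutamine and 10% fetal bovine serum. The medium of MBC24 came from CAPAN-1, an established human pancreatic cancer line. The labels name no further treatment and no separate cultures, so each group is 1 RNA and both groups rest on 1 cell line in culture. On array A the MBC24 RNA was labelled with Cy5 and the MBN0 RNA with Cy3, and on array B the dyes were crossed, with 15 ug of total RNA labelled directly per the labels. The arrays hold 9984 spots, of which 6610 list 1 gene, and these were averaged to 2922 genes.

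Pancreatic cancer is known for wasting of skeletal muscle, and medium conditioned by tumour cells is a common way to expose muscle cells to what a tumour secretes. Myoblasts divide in serum-rich medium, and on leaving the cell cycle they fuse into myotubes under control of MyoD, myogenin and MEF2 proteins. In wasting muscle the ubiquitin ligases FBXO32 (atrogin-1) and TRIM63 (MuRF1) are known to mark proteins for the proteasome. In a dye swap each RNA is labelled once with each fluorochrome, so that a preference of a spot for a dye turns its sign between the arrays when both are read the same way round.

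The deposited values are signed scores whose scale, log base and direction are not given in the sources used here, so values are given in score units and no fold changes are derived. Array B was therefore read in 2 ways. Turning its sign gives the Cy5-over-Cy3 reading, and keeping it as deposited gives the conditioned-over-control reading. In both, a positive value is likely higher in MBC24, from the test and reference channels of the labels, and all signs would be opposite if the ratio were of reference to test. The arrays are 1 technical replicate, so no test is possible, each SD is over n = 2 arrays and shows technical spread alone, and no value says how a further culture would differ. The size rule asks for a mean of 1 score unit or more in size, with 0.5 or more on either array in that direction. A gene can pass it in at most 1 reading.

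As deposited, the 2 arrays ran against each other across the 2922 genes, with r = -0.27. This is a description across genes, which are not replicates and which share these arrays. Over the 3374 spots with no single gene, r was -0.11. In the Cy5-over-Cy3 reading 245 genes were past the size rule as higher in MBC24, 8.38% of all genes, and 318 as lower, 10.9%. Keeping array B as deposited left 91 higher genes, 3.11%, and 109 lower ones, 3.73%. The Cy5-over-Cy3 reading is described first because the arrays correlate below 0. Many genes past 1 score unit on a single array were not past 0.5 in that direction on the other. Of 427 genes at 1 score unit or more on array A, 221 (51.8%) were past 0.5 in the same direction on array B after turning and 74 (17.3%) were past 0.5 in the opposite one. Of 533 genes at -1 or below on array A these were 287 (53.8%) and 102 (19.1%). Starting from array B after turning, they were 220 (44.8%) and 101 (20.6%) of 491 higher genes, and 266 (51.8%) and 78 (15.2%) of 514 lower ones. The share of all genes past 0.5 on an array was not counted, so none stands beside these.

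**Figure D1:**
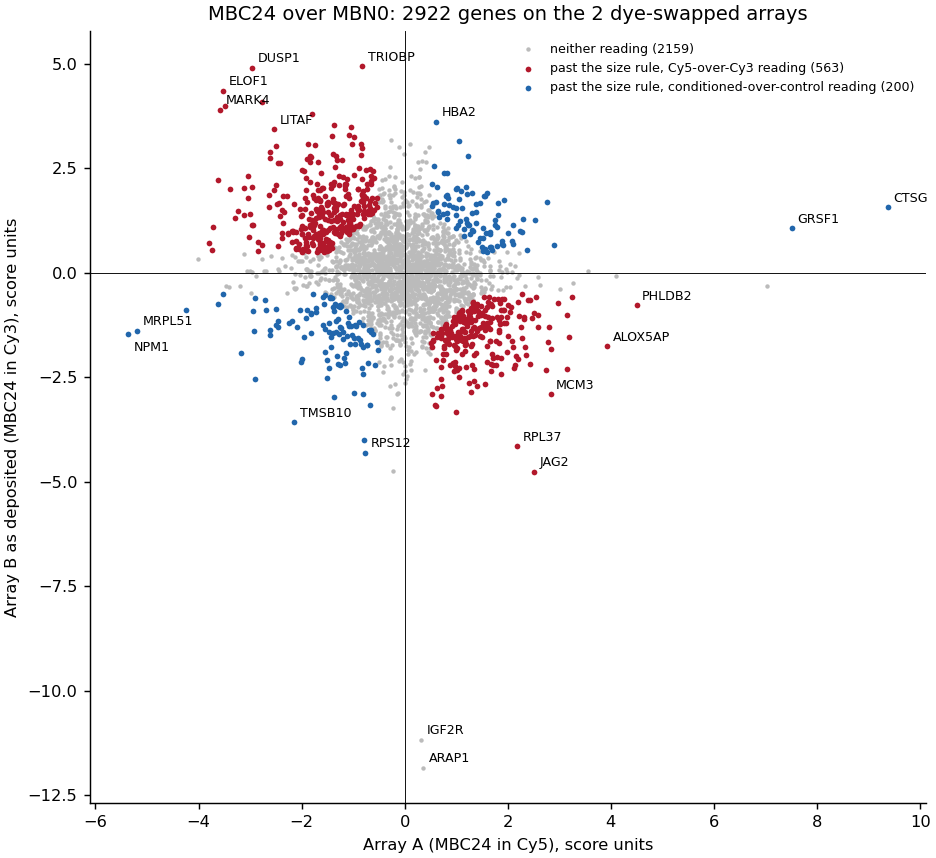
Each point is 1 of 2922 genes, with its score on array A on the x axis and on array B as deposited on the y axis, both in score units and centred on the array's median. Genes past the size rule in the Cy5-over-Cy3 reading lie in the upper left and lower right, those past it with array B as deposited in the lower left and upper right, and r is -0.27.

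Adjacent spots of one probe gave the technical spread within an array. Their scores correlated at r = 0.33 on array A and r = 0.43 on array B over 4992 pairs, against an SD of all spots of 1.48 and 1.47. The spot printed first in a pair scored above its neighbour in 60.9% of pairs on array A and 72.9% on array B as deposited. All spots of a gene on both arrays had the sign of the mean for 441 (78.3%) of the 563 genes past the rule in the Cy5-over-Cy3 reading, and for 135 (67.5%) of the 200 in the conditioned-over-control reading. Over all genes these shares were 24.9% and 11.9%. The size rule already asks the average of each array to have the sign of the mean. The higher shares among genes past it thus follow in part from the rule and are no support for those genes. In all, 7 genes reached 5 score units on an array, and 3 of them (ARAP1, IGF2R and PAFAH1B1) were past the rule in neither reading. IGF2R, the receptor that takes IGF2 to the lysosome, scored -11.18 on array B as deposited and 0.32 on array A. Its array B value came from a single spot at -23.52 beside one at 1.16.

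Among genes past the size rule in the Cy5-over-Cy3 reading, those highest in MBC24 were a Notch ligand, a ribosomal protein, a subunit of the replicative helicase and an activator of leukotriene synthesis. ARAP1 (6.10), IGF2R (5.75), CTSG (3.91) and PAFAH1B1 (3.68) had higher means through 1 array and were not past it. JAG2, a ligand of Notch receptors, scored 2.52 on array A and 4.77 on array B, a mean of 3.64 ± 1.59 score units. All its spots were above 2, from 2.39 to 2.64 on array A and from 3.71 to 5.83 on array B. RPL37, a protein of the large ribosomal subunit, scored 2.18 and 4.15 with a mean of 3.16 ± 1.39. MCM3, part of the helicase that unwinds DNA at replication, scored 2.83 and 2.90, the smallest SD among the 12 highest genes (2.87 ± 0.05), and its spots ran from 2.56 to 3.25. ALOX5AP, which activates 5-lipoxygenase in leukotriene synthesis, scored 3.93 and 1.75. The gasdermin GSDMC scored 3.14 and 2.31, with every spot between 2.07 and 3.63. PHLDB2, a protein of the cell cortex that anchors microtubules, owed its mean of 2.64 ± 2.63 to array A, where it scored 4.50, against 0.78 on array B.

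Below these stood a nuclear protein, a vesicle GTPase, several mitochondrial proteins and a growth factor. ACIN1, a nuclear protein of splicing and of chromatin condensation in apoptosis, scored 2.73 on array A and 2.33 on array B. SAR1A, the GTPase that starts COPII vesicles at the endoplasmic reticulum, scored 3.18 and 1.54. ALDH7A1, an aldehyde dehydrogenase of lysine breakdown, scored 2.84 and 1.83. SLC25A12, the mitochondrial carrier that exchanges aspartate for glutamate, scored 2.43 and 2.17 (2.30 ± 0.18). MRPL46, a protein of the mitochondrial ribosome, scored 2.11 and 2.28, and MTHFD2, a mitochondrial enzyme of folate metabolism, 2.14 and 2.20. VEGFB, a growth factor of the VEGF family, had a mean of 2.23 ± 0.79, but its spots on array A were far apart, at 0.84 and 4.72. Also close on both arrays were RPL32, RPRD2, CDC123, CACFD1 and NEBL, with means from 1.94 to 2.15 score units. For NEBL, which encodes the actin-binding protein nebulette, the close means hid spots from -0.01 to 3.97 on array A.

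The lowest genes in MBC24 included an elongation factor, a MAP kinase phosphatase, a microtubule kinase and proteins of chromatin. ELOF1, a transcription elongation factor, scored -3.53 on array A and -4.36 on array B after turning, a mean of -3.94 ± 0.59 score units. DUSP1, a phosphatase that switches off MAP kinases and is itself an early response gene, scored -2.96 and -4.91 (-3.93 ± 1.38), and its spots lay within -5.02 to -2.95. MARK4, a kinase acting on microtubule-associated proteins, scored -3.58 and -3.90 (-3.74 ± 0.23). SATB1, which organises chromatin, scored -3.48 and -3.99 (-3.73 ± 0.36). RBBP7, a histone-binding subunit shared by several chromatin complexes, scored -2.78 and -4.10. LITAF, a protein of the late endosome named for its induction by lipopolysaccharide, scored -2.53 and -3.44. The arrays lay on the same side of 0 for all of these, and each spot of these 6 genes was at -1.80 or below.

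Among the other low genes, GPS2 and RERE are known as transcriptional corepressors. GPS2 had a mean of -2.80 ± 1.41, with array A spots at -0.00 and -3.59, whereas RERE scored -2.50 and -3.04 with every spot at -2.27 or below. TRIOBP, an actin-bundling protein, scored -0.82 on array A and -4.94 on array B, so its mean of -2.88 ± 2.91 rested on array B. AGMAT scored -2.61 and -2.89, and SLC25A29, a mitochondrial carrier of basic amino acids, -3.40 and -2.0. The genes taken for the smaller of their array values were B4GALT3 (-2.68), RAMP1 (-2.68), FBL (-2.54), GTF2I (-2.52), RAP2C (-2.51) and HDAC5 (-2.30), given as means in score units. FBL encodes fibrillarin, which methylates ribosomal RNA in the nucleolus, and HDAC5 is a histone deacetylase that holds back MEF2.

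**Figure D2:**
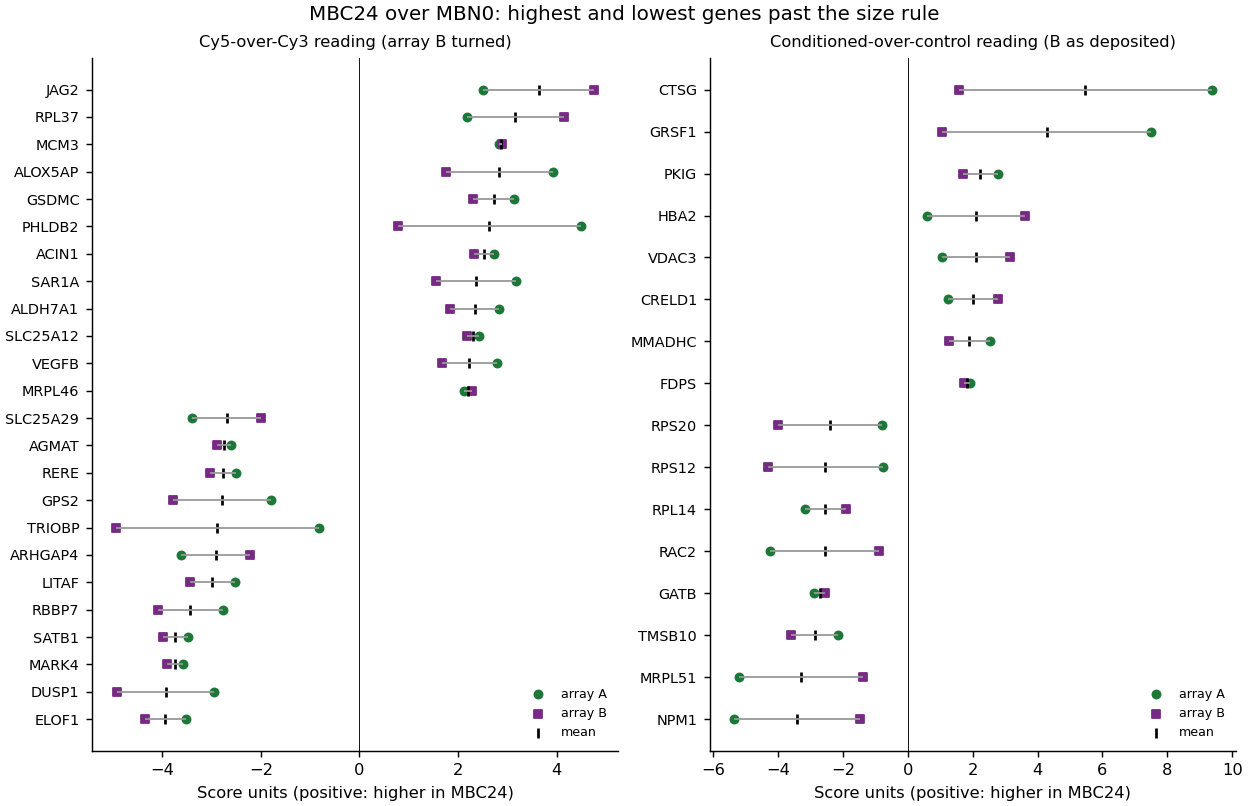
Points are the array A and array B scores, in score units on the x axis, of the leading genes at either end, and bars mark their means over the 2 arrays, with 1 panel for each reading. In the Cy5-over-Cy3 panel JAG2 (mean 3.64) and ELOF1 (mean -3.94) stand at the ends, and in the conditioned-over-control panel CTSG (9.38 and 1.57) and GRSF1 (7.51 and 1.06) have arrays far apart.

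The leading genes had different values in the comparisons that share an RNA with this one. MBC24 over MBN24 shares the MBC24 RNA, and MBC14 over MBN0 shares the MBN0 RNA, so the values are set side by side without a measure of likeness. Subtracting MBC24 over MBN24 from MBC24 over MBN0 gives an indirect MBN24 over MBN0, the time in control medium alone, which contains the same measured value and is only roughly additive in score units. SLC25A29 scored -2.70 here, 0.15 in MBC24 over MBN24, where its arrays were 0.35 and -0.05, and -2.61 in MBC14 over MBN0. For this gene the arrays of those other comparisons lay close together.

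Several other leading genes had arrays of opposite sign in MBC24 over MBN24, so that their means there say little. SATB1 had a mean of 0.10 ± 1.75 there, from 1.34 and -1.13, and of 0.43 ± 2.99 in MBC14 over MBN0, from -1.68 and 2.55. SLC25A12 had 0.01 ± 1.15, from -0.81 and 0.82, against 3.11 and 2.82 in MBC14 over MBN0. MCM3 was at 1.74 and -0.58 in MBC24 over MBN24 and at 1.76 and 2.43 in MBC14 over MBN0. DUSP1 was at -4.69 and 3.41, and then at -0.20 and -4.04. ELOF1 was at -5.79 and 1.05 in MBC24 over MBN24 and at -0.00 and -2.69 in MBC14 over MBN0. The lowest genes here, ELOF1 and DUSP1, thus had arrays far apart in both.

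Some other leading genes kept 1 sign on every array of the direct comparisons. JAG2 had means of 3.64 here, 1.36 in MBC24 over MBN24, 1.07 in MBC14 over MBN0 and 1.48 in MBC14 over MBN14, which shares no RNA with this comparison, and its lowest array value in those 3 was 0.98. ALDH7A1 had means of 2.34, 1.34, 1.73 and 1.60 in that order, with 0.86 its lowest array value. LITAF had means of -2.99, -2.09, -1.98 and -2.87, with arrays at -0.98 and -2.98 in MBC14 over MBN0. GTF2I had means of -2.52, -1.91, -1.51 and -2.34, and its arrays in MBC14 over MBN0 were -0.36 and -2.66. These 4 genes were chosen after their values were seen. FBP2, the muscle fructose bisphosphatase of gluconeogenesis, took opposite signs: -1.77 here, against 4.54 in MBC24 over MBN24, -1.01 in MBC14 over MBN0 and 2.33 in MBC14 over MBN14. Its arrays had the same sign within each of these comparisons.

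**Figure D3:**
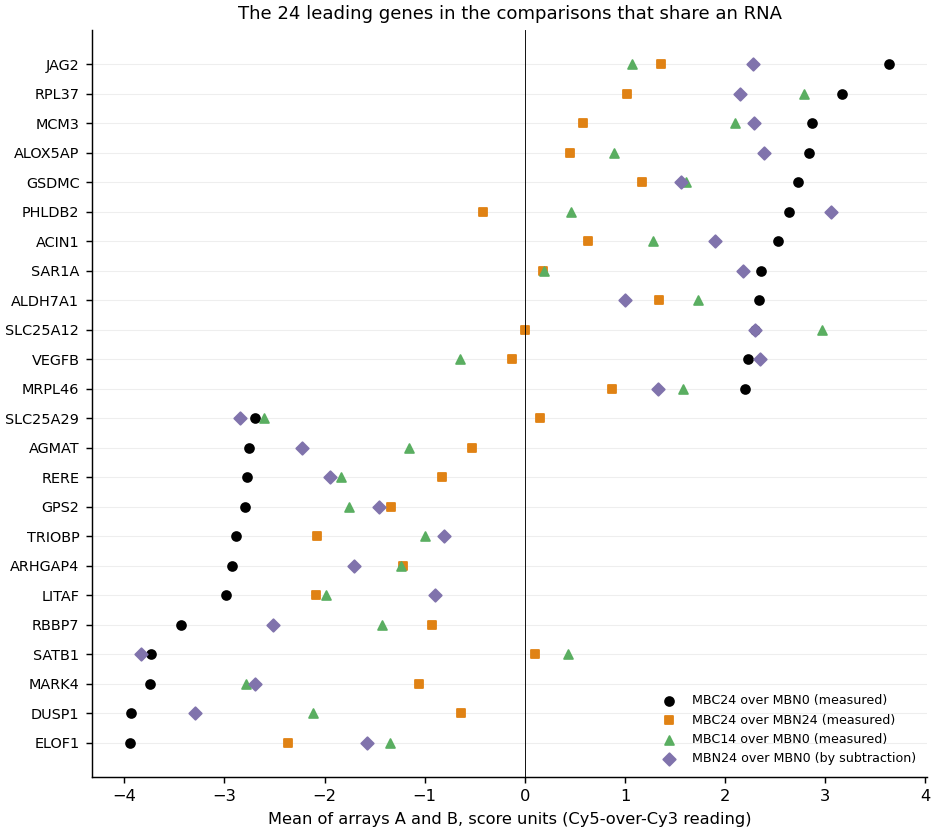
The x axis gives the mean over 2 arrays in score units, Cy5-over-Cy3 reading, and each line of points is a leading gene in MBC24 over MBN0 and in the comparisons that share the MBC24 or the MBN0 RNA, with the subtracted MBN24 over MBN0 as diamonds. LITAF lies at -2.99, -2.09 and -1.98 in the 3 measured comparisons, while SLC25A29 is at -2.70 here and at 0.15 against the 24 hour control. The means hide the arrays, which had opposite signs for several genes in MBC24 over MBN24. Among these were ELOF1, DUSP1, SATB1, MCM3, SLC25A12, TRIOBP, PHLDB2, SAR1A, VEGFB and SLC25A29.

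MBC14 over MBN14 shares no RNA with this comparison. In the Cy5-over-Cy3 reading 33 genes were higher in both, which is 13.5% of the 245 here and 12.4% of the 266 there. Those 266 are 9.1% of all genes. A further 19 (7.76%) of the 245 were past the rule there in the opposite direction. Of the genes lower here, 54 were lower in both (17.0% of 318 and 17.1% of 315, the latter being 10.8% of all genes) and 22 (6.92%) were opposite. With array B as deposited 4 higher genes were shared (4.40% of 91 and 3.85% of 104) and 5 lower genes (4.59% of 109 and 6.10% of 82). The 104 are 3.56% and the 82 are 2.81% of all genes. Opposite there were 1 of the 91 higher genes and 5 of the 109 lower ones, as many as were shared. Across all genes the means correlated at r = 0.14 and r = 0.03 in the 2 readings, as a description across genes.

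Turning to the conditioned-over-control reading, CTSG and GRSF1 had the highest means, each with an array A value set largely by 1 spot. CTSG, a protease of neutrophil granules, scored 9.38 on array A and 1.57 on array B, and its array A spots were 16.31 and 2.45. GRSF1, which binds RNA in mitochondria, scored 7.51 and 1.06, with array A spots at 15.78 and -0.77. Below these, PKIG, an inhibitor of protein kinase A, scored 2.77 and 1.69, and FDPS, the enzyme that makes farnesyl diphosphate for cholesterol synthesis, scored 1.93 and 1.75 (1.84 ± 0.13). VDAC3, a channel of the outer mitochondrial membrane, scored 1.05 and 3.15, CRELD1 1.23 and 2.79, and MMADHC, which handles vitamin B12, 2.53 and 1.27. HBA2, an alpha-globin, had a mean of 2.11 ± 2.12 score units, larger than its array A score of 0.61. Of the genes taken for the smaller of their array values, TSC2, which holds back mTOR, scored 1.59 and 1.92 with spots from 1.52 to 2.04, and KLHL24, BACE2 and LRRC49 had means of 1.74, 1.69 and 1.68.

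The lowest genes of that reading included a nucleolar protein, ribosomal proteins of cytosol and mitochondria, and a thymosin. NPM1, a nucleolar protein of ribosome assembly, scored -5.36 on array A and -1.47 on array B (-3.42 ± 2.75), and MRPL51, a mitochondrial ribosomal protein, -5.19 and -1.38. Their array A spots lay together, within -5.71 to -5.02 for both genes. GATB, which helps charge glutamine tRNA in mitochondria, scored -2.90 and -2.54 (-2.72 ± 0.26). RPL14 scored -3.18 and -1.91, while RPS12 and RPS20 were low mostly on array B, at -4.31 and -3.99 against -0.77 and -0.79 on array A. TMSB10, a thymosin that binds actin monomers, scored -2.14 and -3.58. SIGIRR (-2.08), CYFIP1 (-2.02), PCGF2 (-1.75) and CLPTM1L (-1.73) had the largest of the smaller array values among the further low genes. TMSB10 was 2.07 in MBC24 over MBN24 and -2.11 in MBC14 over MBN0 in the same reading, and NPM1 was 0.49 and -2.73.

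Gene lists are described by how many measured members were past the size rule, beside the shares of all genes (8.38% higher and 10.9% lower in the Cy5-over-Cy3 reading, 3.11% and 3.73% in the other) and beside a median over all genes of -0.03 and -0.02 score units. With lists of 3 to 66 measured genes most of these counts are small. No list was tested. The members named without being among the 4 with the largest Cy5-over-Cy3 means of their list, or otherwise taken by rule, were chosen after their values were seen: ACTC1, ACTN3, ATP5PD, COL7A1, DCN, GLUL, GPX3, IGFBP2, LAMA2, MT2A, RBX1, RPL17, RPL24, RPL3L, RPS2, RPS4X, RPS13, SERPINH1, STMN1, TMSB4X, TNC, UBE2L6, XBP1 and ZYX.

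**Figure D4:**
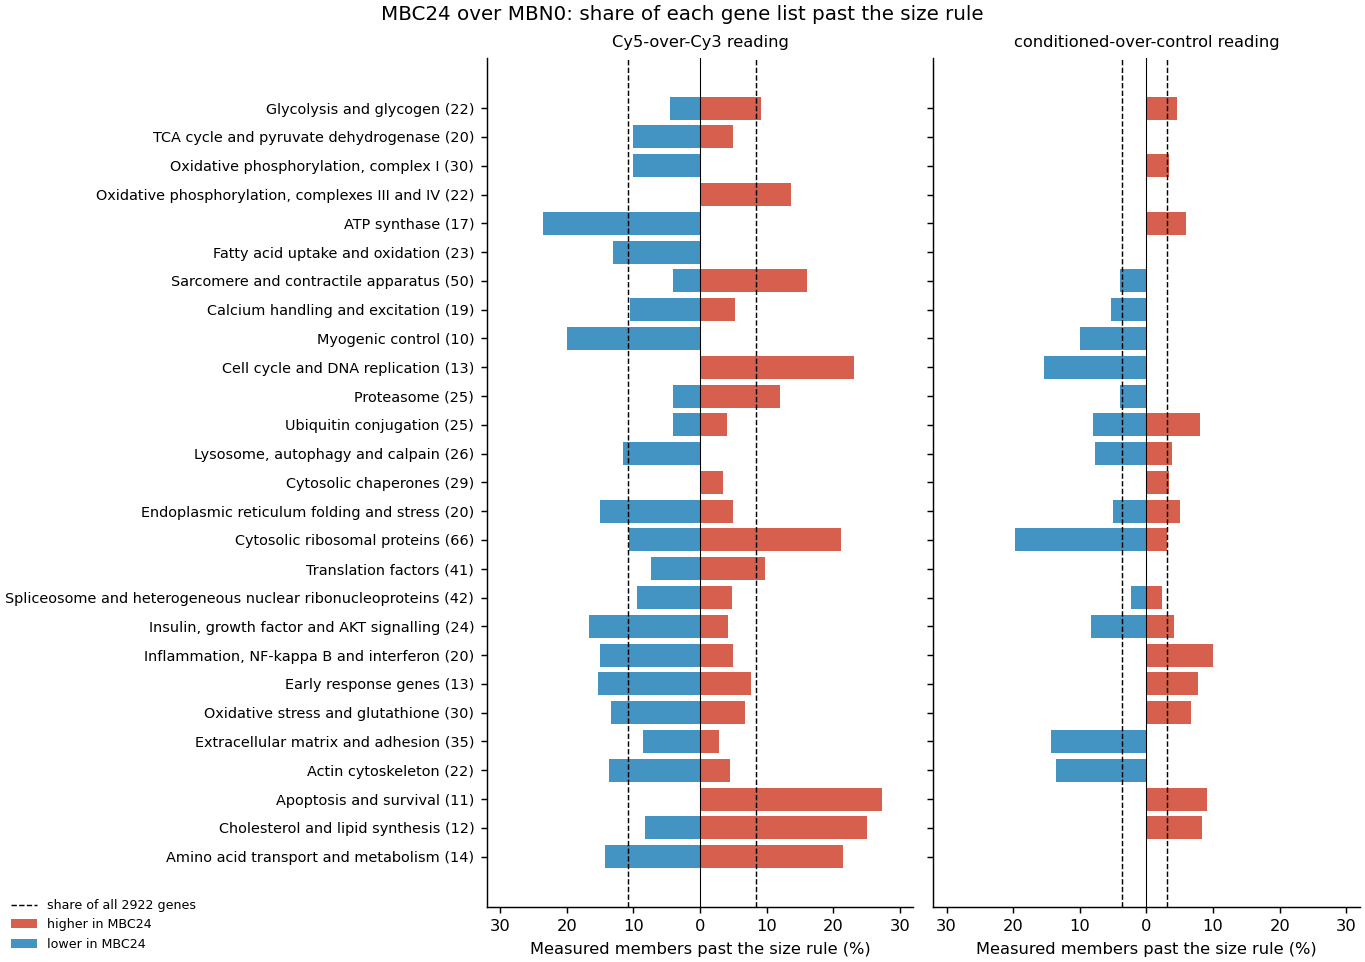
Bars give the percent of each list's measured members (their number in brackets) past the size rule, to the right as higher and to the left as lower in MBC24, with 1 panel for each reading and lists of at least 10 measured genes. Dashed lines mark the shares of all 2922 genes, 8.38% and 10.9% on the left panel and 3.11% and 3.73% on the right, and ribosomal proteins pass the line as higher on the left panel (21.2%) and as lower on the right (19.7%).

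Chaperones of the endoplasmic reticulum fold secreted proteins and are induced when unfolded proteins build up there. Of 20 measured members of their list, 3 were lower in MBC24 in the Cy5-over-Cy3 reading (15% against 10.9% of all genes). In it 1 was higher (5% against 8.38%). CALR, the calcium-binding lectin chaperone calreticulin, scored -2.53 and -1.98 (-2.26 ± 0.39). HSPA5, the HSP70 of this compartment known as BiP, scored -0.66 and -2.13, and P4HB, a protein disulfide isomerase, -1.26 and -1.29. SEL1L, part of the complex that exports misfolded proteins for breakdown, scored 2.97 and 0.72 (1.84 ± 1.59), with array B spots at -0.94 and 2.38. The list's median was -0.04. ATF4, a transcription factor of amino acid and unfolded protein stress, was lower in the conditioned-over-control reading at -1.46 and -2.27 (-1.86 ± 0.57), and XBP1, another factor of that response, was higher at 1.75 and 1.27. Turned, the arrays of ATF4 lay on opposite sides of 0 with a mean of 0.40 ± 2.64. DDIT3, a target of ATF4, was past the rule in neither, at -0.33 and -0.77.

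Promoters are shown for those members of this list that hold a known element, the endoplasmic reticulum stress response element, because its carriers did not score alike. The element was searched as CCAAT, 9 bases of any kind and CCACG on both strands, with no other motif, in windows of 300 bases (250 before to 50 after each start) of RefSeq on GRCm38.p6. It was found in 39 of 32851 promoters (0.119%), and 4 of the 18 measured genes of the list that matched a mouse promoter by symbol held it. None of the 23 matched genes of the cytosolic chaperone list did. The stretches are printed 5′ to 3′ along the gene's strand, with the outer letters of each match in capitals, which read CGTGG and ATTGG where the match is on the opposite strand.
Hspa5, chr2:34772015-34772053, plus strand: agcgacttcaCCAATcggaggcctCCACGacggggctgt
Calr, chr8:84847065-84847103, minus strand: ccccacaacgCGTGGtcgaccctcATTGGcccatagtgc
Hsp90b1, chr10:86705523-86705666, minus strand: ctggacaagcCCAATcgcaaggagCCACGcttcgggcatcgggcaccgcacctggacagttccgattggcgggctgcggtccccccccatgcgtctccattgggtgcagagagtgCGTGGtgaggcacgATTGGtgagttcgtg
Canx, chr11:50325790-50325828, minus strand: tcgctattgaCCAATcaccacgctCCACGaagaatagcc
Of these, HSPA5 and CALR were lower in MBC24 in the Cy5-over-Cy3 reading, at means of -1.39 and -2.26. HSP90B1, the HSP90 of this compartment, had a mean of 0.96 and CANX, the membrane-bound relative of calreticulin, 0.24, both short of the rule. A match is a description of these letters and says nothing about binding.

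Cytosolic chaperones had a median of -0.19 over 29 measured genes in the Cy5-over-Cy3 reading, against -0.03 over all genes. DNAJB1, a heat-inducible partner of HSP70, was the sole member past the rule in the Cy5-over-Cy3 reading, at 0.88 and 2.22 (1.55 ± 0.95). HSPB2, a small heat shock protein of muscle, was the sole one in the conditioned-over-control reading, with a mean of 1.05. Each is 3.45% of the list, against 8.38% and 3.11% of all genes higher in the 2 readings.

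Among cytosolic ribosomal proteins, the largest list, the direction that prevailed turned with the reading. In the Cy5-over-Cy3 reading 14 of 66 were higher (21.2% against 8.38% of all genes) and 7 lower (10.6% against 10.9%), with a median of 0.35. As deposited, 2 were higher (3.03% against 3.11%) and 13 lower (19.7% against 3.73%), with a median of -0.46. The list's medians on the single arrays were -0.28 on array A and -0.81 on array B as deposited. On array B 47 of 66 genes (71.2%) scored below 0, against 48.6% of all genes, and on array A 37 of 66 (56.1%), against 51.7%. The direction of the family in this comparison thus follows how array B is read.

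Within the family, genes of both subunits were at both ends. RPL37 (2.18 and 4.15), RPL32 (2.15 and 2.00), RPL34 (1.35 and 2.59) and RPS18 (1.79 and 2.00) were the highest in the Cy5-over-Cy3 reading. RPL24 (-1.61 and -2.03), RPS2 (-1.94 and -1.52) and RPL17 (-2.17 and -0.97) were the lowest there. With array B as deposited, RPL14, RPS12 and RPS20 were the lowest, and RPS13 (1.28) and RPL3L (1.21), a muscle form of RPL3, were the highest. Ribosomal proteins have many processed pseudogenes and near-identical copies across species, so a spot may bind more than its named gene.

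**Figure D5:**
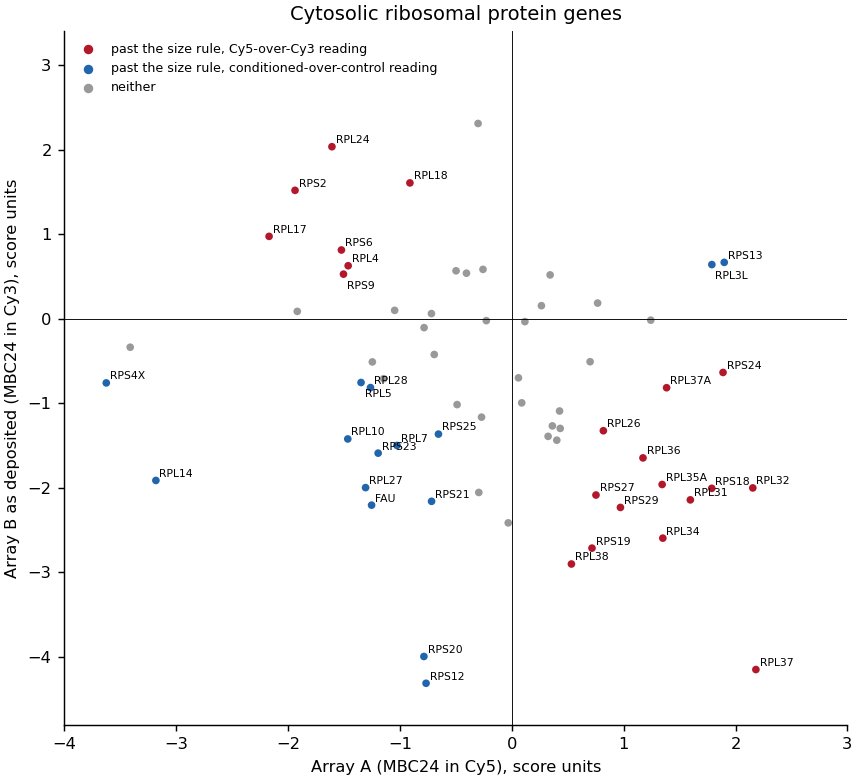
Each point is 1 of 66 measured ribosomal protein genes, with the array A score on the x axis and the array B score as deposited on the y axis, in score units. Points lie below 0 on array B for 47 of 66 genes, and the named genes are those past the size rule in either reading, with RPL37 at 2.18 and -4.15 and RPS4X at -3.62 and -0.76.

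Translation factors showed no such tilt in either reading, and splicing proteins none in the Cy5-over-Cy3 reading. Of 41 translation factors 4 were higher (9.76% against 8.38% of all genes) and 3 lower (7.32% against 10.9%) in the Cy5-over-Cy3 reading. Their median was -0.01 there and -0.07 in the conditioned-over-control reading, where 0 passed the rule. PABPC1, the main poly(A)-binding protein, was lower at -2.77 and -0.67, and EIF3A, the largest subunit of an initiation factor, at -0.65 and -2.20. EIF4EBP3, a repressor of cap-dependent translation, was higher at 1.85 and 0.72. Of 42 spliceosome and hnRNP genes 2 were higher (4.76% against 8.38%) and 4 lower (9.52% against 10.9%), with a median of -0.01. Among them DDX17, an RNA helicase, scored 1.37 and 1.91, LSM2, of the ring that binds U6 RNA, -0.74 and -2.45, and HNRNPA1, which binds pre-mRNA, -1.93 and -1.06 over 4 spots an array. With array B as deposited 1 splicing gene was higher and 1 lower (2.38% each, against 3.11% and 3.73%). The list's median was then -0.22, against -0.02 over all genes, and 0.17 with the first spot of each pair alone.

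Of 17 ATP synthase genes 4 were lower and 0 higher in the Cy5-over-Cy3 reading (23.5% against 10.9% of all genes lower): ATP5F1B, the catalytic beta subunit, at -2.29 and -1.85, ATP5PO at -1.14 and -2.12, ATP5PB at -1.19 and -1.21, and ATP5F1D at -1.06 and -1.26. The 4 array B spots of ATP5PB ran from -4.30 to 2.17. The list's median was -0.09, and its other 13 members ran from -0.79 (ATP5PD) to 0.91 (ATP5MK). Of 30 complex I genes 3 were lower, NDUFS4 (-1.69), NDUFA10 (-1.60) and NDUFA7 (-1.14), a share of 10% against 10.9% of all genes. Of 22 genes of complexes III and IV 3 were higher (13.6% against 8.38% of all genes) and 0 lower. The higher ones were COX4I2 (1.83 ± 1.59), UQCRC2 (1.68 ± 0.88) and COX4I1 (1.21 ± 0.06). The median was 0.13, and COX6A1 was lowest at -1.27, short of the rule. COX4I1 and COX4I2 encode alternative forms of the same cytochrome c oxidase subunit. The conditioned-over-control reading had only 2 members of these 3 lists past the rule, ATP5PD at 1.60 and NDUFB8 at 1.54.

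Of 20 genes of the TCA cycle list 1 was higher (5% against 8.38% of all genes) and 2 lower (10% against 10.9%). SDHC, which anchors succinate dehydrogenase in the membrane, scored 1.67 and 2.18, while MDH2, mitochondrial malate dehydrogenase, scored -0.82 and -1.74 and GOT2, the mitochondrial aspartate aminotransferase, -2.96 and -1.14. SLC25A12, described above as high, carries the aspartate that GOT2 makes. Of 22 glycolysis and glycogen genes 2 were higher (9.09% against 8.38% of all genes) and 1 lower (4.55% against 10.9%). GYG1, which primes glycogen (1.82 and 1.36), and ALDOC, an aldolase (1.13 and 1.34), were higher and FBP2 was lower. The list's median was 0.27. PFKL, the liver form of phosphofructokinase, was higher in the conditioned-over-control reading, at 1.65 and 0.92. Of 23 genes of fatty acid uptake and oxidation 3 were lower (13.0% against 10.9% of all genes) and 0 higher. The lower ones were ECHS1 (-1.32), HADHB (-1.07) and ACSL1 (-1.06), while the list's median was 0.16. The array A spots of ECHS1 lay at -2.50 and 0.92.

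Of 50 sarcomere genes 8 were higher (16% against 8.38%) and 2 lower (4% against 10.9%) in the Cy5-over-Cy3 reading, with a median of 0.08. The list's medians on the single arrays were -0.08 on array A and 0.29 on array B after turning. NEBL had the highest mean, 1.94. MYOT, the Z-disc protein myotilin, scored 1.65 and 1.64, and MYL1, a myosin light chain of fast muscle, 2.44 and 0.65. MYLK2, the skeletal kinase of myosin light chains, was the lowest at -2.01 and -1.36. With array B as deposited 0 were higher and 2 lower (4% against 3.73%). These were ACTC1, the cardiac alpha-actin, at -3.53 and -0.51, and ACTN3, the actinin of fast fibres, with a mean of -1.03. Of 19 genes of calcium handling and excitation CACNB1, a subunit of the voltage-gated calcium channel, was higher (1.13), and CKB, the brain form of creatine kinase (-2.31 ± 0.59), and TRDN, triadin of the calcium release complex (-1.26 ± 0.73), were lower. PLN, phospholamban, was lower in the conditioned-over-control reading, at -1.09 and -1.27.

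Of 10 genes of myogenic control 2 were lower (20% against 10.9% of all genes) and 0 higher. HDAC5 scored -2.50 and -2.10, and MEF2C, the transcription factor that HDAC5 holds back, -1.49 and -1.26 (-1.37 ± 0.17). MYOD1, the myoblast determination factor, was past the rule in neither reading, with means of -0.33 and -0.63, and its array B spots after turning were -2.85 and 3.46. IGF2, a growth factor of muscle cells, was lower in the conditioned-over-control reading, at -0.96 and -1.71, with spots on both sides of 0 on each array. MYOG, the gene of myogenin, was not among the genes measured here.

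Of 13 genes of the cell cycle and DNA replication 3 were higher (23.1% against 8.38% of all genes) and 0 lower in the Cy5-over-Cy3 reading. The higher ones were MCM3, BUB3, a mitotic checkpoint protein (1.82 and 1.12), and H2AZ1, a histone variant (1.57 and 1.28). The gene means of this list had a median of 0.39. Taken singly, however, both arrays gave list medians below 0, at -0.13 for A and -0.14 for B after turning, so neither shows a rise of the list. The other reading had 0 higher and 2 lower (15.4% against 3.73% of all genes). These were CCND2, a cyclin of the G1 phase (-0.52 and -1.85), and STMN1, which takes apart microtubules (-1.03). Of 11 apoptosis and survival genes 3 were higher (27.3% against 8.38% of all genes) and 0 lower, with a median of 0.77. BID, which carries the death signal to mitochondria, had a mean of 1.13 ± 0.61, and the survival proteins MCL1 and BCL2A1 had means of 1.12 ± 0.06 and 1.08 ± 0.40. The members that were higher thus included genes of opposite function.

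In this comparison FBXO32 and TRIM63, known from muscle wasting, differed little from 0 or depended on the reading. FBXO32 scored 0.47 and 0.75 (0.61 ± 0.20) in the Cy5-over-Cy3 reading and had a mean of -0.14 in the other. TRIM63 scored 0.65 and -1.46 (-0.40 ± 1.5), and with array B as deposited 0.65 and 1.46 (1.06 ± 0.57), past the rule. Its array B spots as deposited were -0.35 and 3.27. In the Cy5-over-Cy3 reading TRIM63 scored 2.98 and 2.93 in MBC24 over MBN24 and 2.12 and 2.26 in MBC14 over MBN14. Its subtracted MBN24 over MBN0 was -2.33 and -4.39. With array B as deposited the arrays of TRIM63 had opposite signs in each of these. FBXO32 scored -0.49 and -0.61 in MBC24 over MBN24 and -1.10 and -0.38 in MBC14 over MBN14, array B turned. TRIM55, a close relative of TRIM63 in the sarcomere, was higher in the Cy5-over-Cy3 reading, at 0.98 and 1.5. Of 25 ubiquitin conjugation genes it and SKP1 (-1.07) were the sole members past the rule there (4% each way, against 8.38% and 10.9%). In the other reading TRIM63 and UBE2L6 were higher and UBE2G1 (-1.79) and RBX1 lower (8% each way, against 3.11% and 3.73%). Of 25 proteasome genes 3 were higher and 1 lower. PSMC1 (1.47 and 1.29), PSMC3 (1.18 and 1.20) and PSMC4 (-1.97 and -0.56) are all ATPases of the same ring of the proteasome, and SEM1 (0.70 and 2.25) belongs to its lid.

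Lysosome, autophagy and calpain genes held 3 of 26 lower (11.5% against 10.9% of all genes) and 0 higher. LAMP1, a membrane protein of lysosomes, scored -1.84 and -2.64 (-2.24 ± 0.57), ATP6V1A, of the proton pump, -1.86 and -0.84, and MAP1LC3B, which coats autophagosomes, -1.23 and -1.02. LAMP1 was 0.78 and MAP1LC3B 1.61 in MBC24 over MBN24. CD63, another lysosomal membrane protein, was higher in the conditioned-over-control reading, at 1.52 and 0.53.

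Of 24 genes of insulin, growth factor and AKT signalling 4 were lower (16.7% against 10.9% of all genes) in the Cy5-over-Cy3 reading. In it 1 was higher (4.17% against 8.38%), and the median was -0.19. TSC1, which acts with TSC2 to hold back mTOR, scored -2.64 and -1.86 (-2.25 ± 0.55). TSC2 itself was -0.17 in that reading and 1.75 ± 0.24 in the other. GRB2, an adaptor of growth factor receptors, scored -2.17 and -1.0, IGFBP4, which binds IGFs, -1.87 and -0.93, and GSK3A, a kinase of glycogen synthase, -1.99 and -0.50, with array B spots at -2.43 and 1.42. IGFBP2, another binding protein of IGFs, was the higher one at 1.09.

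Early response genes are switched on within minutes by growth factors or stress. Of 13 measured, 1 was higher (7.69% against 8.38% of all genes) and 2 were lower (15.4% against 10.9%). DUSP1 was the lowest and EGR1, a zinc finger transcription factor, scored -2.11 and -0.59, with array B spots at -3.19 and 2.01. IER5 was higher at 1.57 and 2.66, and its array B spots were -0.82 and 6.14. JUN, of the AP-1 factor, was higher in the conditioned-over-control reading, at 1.46 and 1.68 (1.57 ± 0.15). Of 20 genes of inflammation and interferon signalling 1 was higher (BCL2A1, 5% against 8.38% of all genes) and 3 lower (15% against 10.9%). The lower ones were LITAF, IFITM2, an interferon-induced membrane protein (-2.20 and -1.01), and STAT5B, a factor of cytokine signalling (-1.52 and -0.97). Of 3 hypoxia response genes 1, VEGFB, was higher (33.3% against 8.38% of all genes).

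Matrix genes scored low on both arrays as deposited, and actin genes on array A. Of 35 genes of matrix and adhesion 1 was higher (2.86% against 8.38%) and 3 lower (8.57% against 10.9%) in the Cy5-over-Cy3 reading. The list's median there was 0.10. In the other reading 0 were higher and 5 lower (14.3% against 3.73%), with a median of -0.34. As deposited the list's medians were -0.55 on array A and -0.62 on array B. COL1A1, the alpha chain of collagen I, scored -3.13 and -1.38 (-2.25 ± 1.24) in the Cy5-over-Cy3 reading, SPARC, a collagen-binding matrix protein, -0.83 and -2.24, and PLOD1, which hydroxylates collagen, -1.13 and -1.41. ITGB1BP2, melusin of striated muscle, was higher at 1.92 and 1.21. The 5 lower genes of the other reading were SERPINH1, the collagen chaperone (-1.67), DCN, decorin (-1.30), COL7A1 (-1.28), TNC (-1.27) and LAMA2 (-1.24).

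Actin cytoskeleton genes had medians of -0.45 and -0.43 in the 2 readings. In each, 3 of 22 were lower (13.6%, against 10.9% and 3.73% of all genes). In the Cy5-over-Cy3 reading 1 was higher (4.55% against 8.38%). On the single arrays as deposited the list's medians were -0.72 and 0.24. TAGLN, transgelin of smooth muscle, scored -3.11 and -2.03 (-2.57 ± 0.77), MYH9, a non-muscle myosin, -2.45 and -0.64, and TLN1, which links integrins to actin, -0.71 and -1.48. As deposited, the thymosins TMSB10 (-2.86 ± 1.02) and TMSB4X (-1.99) were lower, with ZYX, zyxin of focal adhesions, at -1.28.

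Of 12 genes of cholesterol and lipid synthesis 3 were higher (25% against 8.38% of all genes) and 1 lower (8.33% against 10.9%) in the Cy5-over-Cy3 reading. The list's median there was 0.31. DGAT2, which makes triglyceride, scored 2.25 and 1.29, IDI1, of the isoprenoid pathway, 1.16 and 1.88, and LPIN1, a phosphatidate phosphatase, 1.13 and 1.64. FASN, fatty acid synthase, was lower at -1.87 and -0.52. FDPS, the enzyme after IDI1, was higher in the other reading, so the neighbouring steps did not pass the rule in the same one. Of 14 genes of amino acid transport and metabolism 3 were higher (21.4% against 8.38% of all genes) and 2 lower (14.3% against 10.9%) in the Cy5-over-Cy3 reading. MTHFD2 and SLC38A2, a carrier of small neutral amino acids (2.31 and 1.12), were higher, as was GLUL (1.06), and SHMT1, the cytosolic serine hydroxymethyltransferase, was lower at -1.65 and -1.74.

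In the Cy5-over-Cy3 reading 2 of 30 genes of oxidative stress and glutathione were higher (6.67% against 8.38% of all genes). In it 4 were lower (13.3% against 10.9%), and the median was 0.18. SOD1, the cytosolic superoxide dismutase, was higher at 1.56 and 1.37 (1.46 ± 0.13). KEAP1, which marks the factor NRF2 for breakdown, was lower at -2.94 and -1.14 (-2.04 ± 1.27), as were TXNRD1, thioredoxin reductase (-2.19 and -0.73), and PRDX6, a peroxiredoxin (-1.20 and -1.63). As deposited, MT2A, a metallothionein (1.63), and GPX3, a secreted glutathione peroxidase (1.16), were higher (6.67% against 3.11%) and 0 lower.

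The deposited scores are ratios between the 2 RNAs, so whether a marker is present in these cells cannot be read from them. Of the myoblast markers 5 were measured, DES, ITGA7, MYOD1, NCAM1 and VIM, with means from -0.94 to 0.59 in the Cy5-over-Cy3 reading, and 0 were past the rule in either reading. Of the myotube markers 7 were measured, from -0.34 to 0.44, and 0 were past it in either, CKM over 22 spots an array at -0.31. Of the fibroblast markers 4 were measured, with COL1A1 lower in the Cy5-over-Cy3 reading and DCN lower in the other. Endothelial markers (3 measured) and adipocyte markers (2 measured) had 0 past the rule. Of 5 blood cell markers HBA1, an alpha-globin, was higher at 1.28 and 1.16 in the Cy5-over-Cy3 reading, where HBA2 was -1.50, though both encode one protein. Of the epithelial markers, the spots named S100P were lower at -1.35 and -2.52, and SPINT2 was at 0.35. The spots carry human gene names and the RNA is of mouse cells, so a related transcript may bind the S100P spots. The part of other cells' RNA in these results was not tested.

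Genes near the threshold of the size rule lay close together. Just inside it in the Cy5-over-Cy3 reading were CD48 at 1.001 and HSDL2 at -1.006, with LAS1L and IPO4 beside them. Just outside were MYO9B at 0.995, ZNF692 at 0.996, CPVL at -0.994 and UBB at -0.992. As deposited, CEBPD and SNAPIN (1.01) and FNBP4 and RPS25 (-1.01) were just inside, and DNAJC8 (0.990), SMTNL2 (0.994), AGAP3 (-0.997) and S100A11 (-0.999) just outside.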

How the data were processed

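Both arrays carry RNA of MBC24 and MBN0 in crossed dyes, on spotted arrays of human muscle genes per the labels. The authors deposited 1 signed score per spot and array. Background correction, normalisation, scale and log base are not given in the sources used here, and the largest scores exceed 16, the limit of a log2 ratio between 16-bit channels. The test plan assumed log ratios and was applied to the scores unchanged. Scanner intensities were not used here, so signal over background is unknown and no dim spot was left out, and precision is limited by there being 2 arrays.

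Scores were centred on each array's median (0.03 for array A, -0.06 for array B), and spots were averaged per gene by the platform annotation of 2016. Of 9984 spots, 106 list several genes and 3268 are unnamed here. Since human gene names are set against mouse RNA, a related transcript may bind a spot. Of the 2922 genes, 281 have more than 2 spots.

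The comparison, the 28 pathway and 7 marker lists and the orientation were chosen with earlier results of these data known. Named genes are, among those past the size rule, the 12 highest and 12 lowest by mean (8 and 8 in the conditioned-over-control reading), up to 6 (4) more each way by the smaller array value, up to 4 per list past the rule, ATF4, DDIT3, FBXO32, TRIM63 and MYOD1, and genes at the rule's edges, of which a few are not reported here. Alternatives were other centring, scaling, single spots of a pair, spot agreement, other sizes for the rule and single arrays. Scripts ran in Python 3.11.15 with pandas 2.3.3, numpy 2.4.6 and scipy 1.17.1.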

Additional observations from a re-analysis of the deposited data

Results flagged for a closer look

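Some genes past the size rule both in MBC24 over MBN0 and in MBC14 over MBN0 had opposite signs on every array of the 2 times. Both comparisons share the MBN0 RNA, and the difference was not tested. Genes past the rule with the same sign at both times were not counted, so the genes named here have no share beside them. In the Cy5-over-Cy3 reading CHMP7, of the machinery that reseals the nuclear envelope, scored -1.34 at 24 hours and 1.09 at 14 hours, a difference of -2.43 score units. REXO1 scored -1.07 and 1.53 (-2.60), and SEPHS2, which makes selenophosphate for selenoproteins, -1.04 and 1.42 (-2.46). TGM2, tissue transglutaminase, went the other way, at 1.22 and -1.30 (2.52).

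In the conditioned-over-control reading 7 genes did so. MARF1 scored 1.61 at 24 hours and -2.07 at 14 hours, a difference of 3.68, RARS1, the arginine tRNA synthetase, 1.62 and -1.73 (3.35), MMADHC 1.90 and -1.01 (2.91) and TSC2 1.75 and -1.01 (2.76). TRAFD1 scored -1.39 and 2.21 (-3.60), ATP6V0A1, of the proton pump, -1.27 and 1.48 (-2.75), and TECR, of fatty acid elongation, -1.02 and 1.60 (-2.62).

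Probes without a gene name here also passed the size rule. Of 1634 such probe pairs, 210 (12.9%) were higher and 163 (9.98%) lower in the Cy5-over-Cy3 reading, 373 in all, against 8.38% and 10.9% of named genes. In the conditioned-over-control reading 77 (4.71%) were higher and 76 (4.65%) lower, 153 in all, against 3.11% and 3.73%.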

How the results depend on the processing

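No paired analysis was possible because the arrays are a dye swap of the same RNAs and no test was run. The counts given here are for higher and lower genes, as reported 245 and 318 with array B turned and 91 and 109 with array B as deposited. Without centring, with scaling to one SD, with the median over spots and with centring on 51 neighbouring spots, they stayed within 1.5 times of these. The genes themselves changed more. With 51 neighbouring spots 145 of the 245 and 203 of the 318 were kept, and 65 of the 91 and 76 of the 109. Centring on 11 neighbouring spots lowered the 245 to 163, of which 101 were among the 245. Keeping genes with a spot SD under 1 on both arrays gave 127 and 166, and 31 and 46, of the 1286 genes left. A mean of at least 2 with arrays of at least 1 gave 24 and 53, and 5 and 11. A mean of at least 0.5 with arrays of at least 0.25 gave 523 and 581, and 267 and 324. With a single array and a size of 1, counts ranged from 427 (array A) to 491 (array B) for higher genes and from 514 (B) to 533 (A) for lower ones in the Cy5-over-Cy3 reading, and from 427 to 514 and from 491 to 533 in the other. The first spot of each pair alone gave 318 higher in the conditioned-over-control reading, and the second spot 339 lower. With either spot centred on its own median, an alternative chosen after seeing the data, these were 196 and 182 for the first spot and 153 and 200 for the second.

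Among named genes past the rule, 74 of 121 and 26 of 39 stayed past it with 11 neighbouring spots, 101 and 31 on array A alone, and 100 and 32 on array B alone. The sign turned for EGR1 (0.075), GSK3A (0.10) and PRPF38B (-0.20) with the second spot, for NDUFA7 (0.055) and PLOD1 (0.020) with 11 neighbouring spots, and for IGF2 (0.46) with the first spot in the conditioned-over-control reading. Of 196 list medians recomputed per reading, 60 and 58 moved by more than the SD over the arrays, and 3 and 9 that were over 0.2 in size changed sign. With array B turned these were cell cycle (-0.26, first spot), myogenic control (0.19, second spot) and TCA cycle (0.04, second spot). With array B as deposited the first spot gave actin 0.02, cholesterol 0.38, fatty acid 0.31, insulin signalling 0.20 and splicing 0.17. Centring on 11 neighbouring spots gave endoplasmic reticulum 0.10, fatty acid 0.07 and cell cycle -0.17, and the second spot gave cell cycle -0.03. The cause was not tested. The labels do not settle which reading of array B holds.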
